A study of Mus musculus with 4 samples.

Results

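Oligodendrocyte precursor cells (OPCs) lying against blood vessels were compared with OPCs farther away in sections of neonatal mouse brain. Both sets of cells were chosen by measured values, namely transcript counts per segmented cell and the position of the cell centre. A cell with at least 20 gene counts was taken as an OPC when it held at least 5 counts of Pdgfra, at least 2 of Sox10 and fewer than 5 of Cldn5. A vessel cell held at least 8 counts of Cldn5 and at least 1 of Pecam1. An OPC was near when its centre lay within 15 units of the nearest vessel-cell centre, and far when it lay 40 to 100 units away. The coordinate unit is not named in the files. Of 863580 segmented cells, 794833 had enough counts, and 42080 of these (5.29%) were OPCs. Of the OPCs, 3114 (7.40%) were near and 21160 (50.3%) were far, while 16111 lay between the classes and 1695 lay beyond 100 units. The 4 coverslips held 555, 635, 696 and 1228 near OPCs, and 4056, 5062, 4585 and 7457 far OPCs.

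The counts come from MERFISH, an imaging assay that identifies single RNA molecules in tissue by barcodes read over rounds of hybridization, here for 140 genes and 40 blank barcodes that measure false decoding. All animals were at postnatal day 5, and 24 h earlier, at postnatal day 4, the whiskers on the right of the snout had been lesioned, so no group lacks the lesion. Each of the 4 coverslips carried 1 wild-type and 1 Cx3cl1(-/-) coronal section of 10 µm containing the barrel cortex, from males on coverslips 1 and 2 and from females on coverslips 3 and 4. No column assigns a cell to a genotype, a hemisphere or a region, so every value averages over both sections, both hemispheres and all tissue of the sections, and the coverslip is the replicate (n = 4). Each section is 1 animal's tissue at most, and the labels do not say whether coverslips share animals. The p-values therefore measure the spread between coverslips only.

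OPCs are proliferating glial cells that carry the PDGF receptor encoded by Pdgfra and the lineage transcription factor Sox10, and that later form myelinating oligodendrocytes. In the developing brain they spread through the tissue along blood vessels. Wnt proteins, secreted ligands that act through Frizzled and Lrp receptors on beta-catenin and Tcf/Lef transcription factors, are known both for holding OPCs in the precursor state and for signalling from neural cells to the endothelium, where Wnt7a and Wnt7b act through the co-receptors Reck and Adgra2.

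The marker counts matched the label of the OPCs. Cspg4, the gene of the NG2 proteoglycan of OPCs, was not used by the rule and averaged 9.96 ± 1.65 counts per OPC (SD, n = 4), against 0.330 ± 0.0856 per astrocyte and 0.270 ± 0.0548 per other cell. Pecam1, an adhesion molecule of endothelium, averaged 8.93 ± 1.93 per vessel cell and 0.162 ± 0.0279 per OPC. Vessel cells are not endothelium alone by this rule, since they also held 4.13 ± 0.877 counts of Pdgfrb, the PDGF receptor of pericytes, and 1.95 ± 0.537 of Cspg4, which pericytes also make. The levels of the markers that chose the OPCs were close in both classes, which is a description. Pdgfra stood at 17.5, 17.5, 18.4 and 20.1 counts per near OPC on coverslips 1 to 4 and at 17.5, 18.1, 18.2 and 20.3 per far OPC. Sox10 stood at 8.26, 7.84, 9.33 and 12.5 near and at 8.60, 8.00, 9.40 and 13.1 far. The class ranges of both genes overlapped.

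Cells just inside and just outside the limits of the rule are given next, without a test. The 463 OPCs in the outermost unit of the near class held 0.152 to 0.238 counts of Cldn5 per cell over coverslips, and the 483 OPCs in the next unit outward held 0.160 to 0.274. Pecam1 stood at 0.174 to 0.329 in the former and 0.0811 to 0.293 in the latter, higher inside on coverslips 1, 2 and 4. The 2271 OPCs with exactly 5 counts of Pdgfra averaged 4.83 to 6.56 counts of Sox10, and the 2416 cells left out with 4 counts of Pdgfra averaged 4.82 to 5.78. Cspg4 averaged 3.13 to 3.89 in the former and 2.75 to 3.64 in the latter, lower in the cells left out on 4 of 4 coverslips. Of the 101 OPCs with 4 counts of Cldn5, 55.2% to 66.7% were near, as were 43.8% to 72.7% of the 76 cells left out with 5. In all, 787 cells met the Pdgfra and Sox10 limits but held 5 or more counts of Cldn5. Of these, 698 (88.7%) lay within 15 units of a vessel-cell centre. That number includes 560 that were themselves vessel cells by the rule and so matched their own centre, which largely fixes the share. The limit on Cldn5 thus removed mostly cells that the rule itself takes as vessel cells.

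Near OPCs were smaller as segmented. The median counts per cell were 141, 118, 139 and 184 near and 136.5, 121, 140 and 183 far, and the class ranges overlapped. The median volume was 840 ± 28.3 volume units near and 933 ± 45.5 far (SD, n = 4), and it was lower near on 4 of 4 coverslips (exact sign-flip test, two-sided, p = 0.13, the smallest that 4 coverslips allow). Within 15 units of its centre a near OPC had 2.94 ± 0.183 other cells, vessel cells included, and a far OPC had 1.81 ± 0.139. The rule itself places a vessel-cell centre within 15 units of every near OPC and of no far OPC. Most of this difference is thus set by the rule and is no result. An astrocyte centre lay within 15 units of 17.5% ± 2.81 of near OPCs and of 14.6% ± 2.60 of far OPCs.

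Cldn5 and Pecam1, the vessel genes used by the rule, were described in OPCs as a check on vessel transcripts counted there. Cldn5, a tight-junction gene of endothelium, stood at 0.476, 0.370, 0.450 and 0.437 counts per near OPC and at 0.0816, 0.0731, 0.105 and 0.115 per far OPC. Pecam1 stood at 0.274, 0.324, 0.352 and 0.384 near and at 0.121, 0.120, 0.156 and 0.158 far. Both genes were higher near on every coverslip, and the near and far ranges did not overlap. The far levels of both lay below the highest blank on every coverslip, which averaged 0.155 counts per far OPC. The rise from far to near was 1.03% ± 0.129 of the vessel-cell level for Cldn5, whose counts in OPCs the rule kept below 5, and 2.21% ± 0.331 for Pecam1, which had no such limit. Neither gene had a count in 61.5% ± 2.94 of near OPCs and in 81.3% ± 2.55 of far OPCs. The level of Cldn5 was 0.670 ± 0.0662 per OPC within 10 units of a vessel-cell centre, 0.165 ± 0.0345 at 15 to 20 units and 0.0977 ± 0.0193 at 40 to 60 units. These values stand beside every gene below that vessel cells also express.

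Of the 136 genes not used by the rule, 20 were called higher near vessels (14.7% of genes tested) and 16 lower (11.8%). A call needed an adjusted p below 0.05 in edgeR's quasi-likelihood test of sums paired by coverslip, the same sign on 4 of 4 coverslips, and a count per cell above all 40 blanks in the class with the higher level. The higher genes were led by Vim, Pdgfrb, Gfap, Id1 and Adgra2, and the lower genes by Prkce, Meg3, Bcl11b, Peg3 and Apc. The higher genes had the larger differences, up to 3.37-fold, whereas the strongest fall was 1.32-fold, and the median log2 difference of all 136 genes was -0.03. The balance depended on the scaling: scaled by library totals 23 genes were higher and 12 lower, by DESeq2 size factors 18 and 24, and per cell volume 37 and 3, with an all-gene median of 0.14. Without coverslip 3 the test called 13 genes higher and 12 lower.

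**Figure D1:**
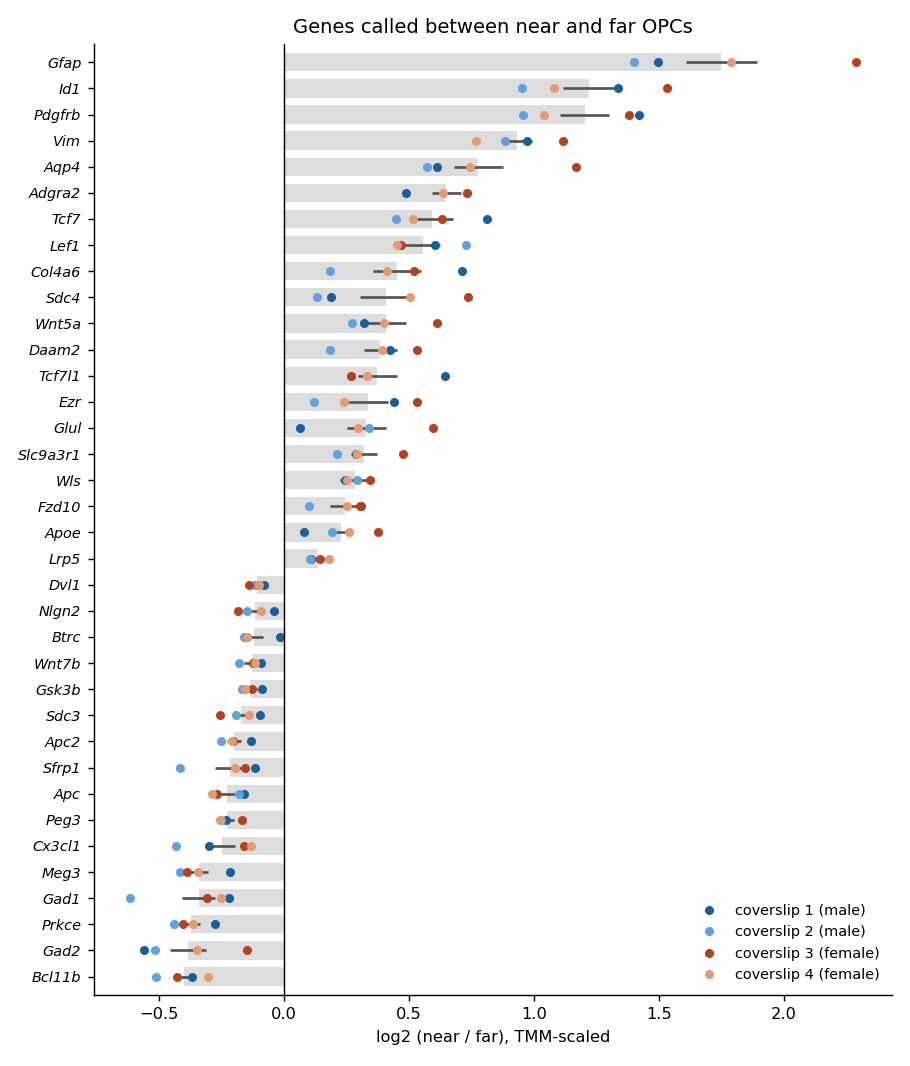
Log2 ratio of near to far OPC counts for the 36 genes called, with bars for the fitted difference, error bars for its SE and a point for each of the 4 coverslips. Every point of a gene lies on the same side of 0, and Gfap, at 1.75, has the largest difference.

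The intermediate filament genes Vim and Gfap rose together near vessels. Vim, which encodes vimentin, a filament protein of immature glia and of endothelium, stood at 1.38, 1.17, 1.76 and 2.45 counts per near OPC and at 0.711, 0.636, 0.780 and 1.41 per far OPC. It was higher near on each coverslip, although the class ranges overlapped because the levels of coverslip 4 were high throughout. The difference was 1.91-fold (log2 0.93 ± 0.06 SE, adjusted p = 0.00036). Gfap, the filament gene that marks astrocytes, stood at 2.43, 2.28, 4.20 and 5.38 near and at 0.874, 0.865, 0.826 and 1.52 far. Its ranges did not overlap, and the female coverslips 3 and 4 had the highest near levels. The difference was 3.37-fold (log2 1.75 ± 0.14 SE, adjusted p = 0.00055).

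The sequences just upstream of Vim and Gfap are shown because these filament genes moved together. They were chosen after the values were seen. Both are the 250 bases before the annotated start, from RefSeq on GRCm38.p6. Vim lies at chr2:13574061-13574310 on the plus strand and Gfap at chr11:102897201-102897450 on the minus strand. Capitals mark the TATA box letters TATAAA.
Vim: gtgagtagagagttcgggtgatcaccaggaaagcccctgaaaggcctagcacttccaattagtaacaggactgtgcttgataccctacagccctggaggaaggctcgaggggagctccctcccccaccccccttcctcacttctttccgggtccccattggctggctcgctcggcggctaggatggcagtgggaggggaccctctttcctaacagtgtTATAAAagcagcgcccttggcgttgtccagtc
Gfap: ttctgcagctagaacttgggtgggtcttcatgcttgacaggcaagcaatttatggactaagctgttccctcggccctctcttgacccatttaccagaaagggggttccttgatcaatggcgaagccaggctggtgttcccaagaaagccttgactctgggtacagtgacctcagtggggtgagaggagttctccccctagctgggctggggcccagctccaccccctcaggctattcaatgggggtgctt
TATAAA occurred once in the Vim window and not in the Gfap window, and 12.4% of 32851 promoter windows of this length held it on either strand. CTTTGA, the core of the Tcf/Lef motif, occurred in neither window and in 13.8% of all windows. A match here describes letters only, and a missing match says only that these letters are not in the window.

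Of the 5 astrocyte markers tested, 2 were called higher, Gfap and Aqp4, and the other 3 were not called (median log2 0.20, against -0.03 over all genes, of which 14.7% were called higher). Aqp4, the water channel gene of astrocyte endfeet, stood at 1.46, 1.03, 1.54 and 1.81 counts per near OPC and at 0.968, 0.692, 0.658 and 1.06 per far OPC. It was higher near on 4 of 4 coverslips with overlapping ranges (1.71-fold, log2 0.78 ± 0.10 SE, adjusted p = 0.0019). Slc1a3, the astrocyte glutamate transporter gene, was not called, at 2.73 ± 0.353 near and 2.51 ± 0.294 far (log2 0.10, 95% confidence interval 0.02 to 0.19, adjusted p = 0.067). Summed over the list, astrocyte markers amounted to 7.43 to 14.1 counts per near OPC and 5.38 to 9.03 per far OPC, and none was at 0. Astrocytes held 10.7 ± 1.51 counts of Gfap, so that the near-far gain in OPCs was 23.0% ± 8.60 of the mean over all astrocytes. Gfap was itself higher in astrocytes near vessels, at 22.6 counts per cell against 7.45 far, so the gain is a smaller fraction of the level in near astrocytes. In OPCs without an astrocyte centre within 20 units in either class, Gfap differed by 1.42, Aqp4 by 0.60 and Vim by 0.77 on the log2 scale (adjusted p = 0.00055, 0.0044 and 0.0004). Whether transcripts of astrocytes add to these counts in other ways was not tested.

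**Figure D2:**
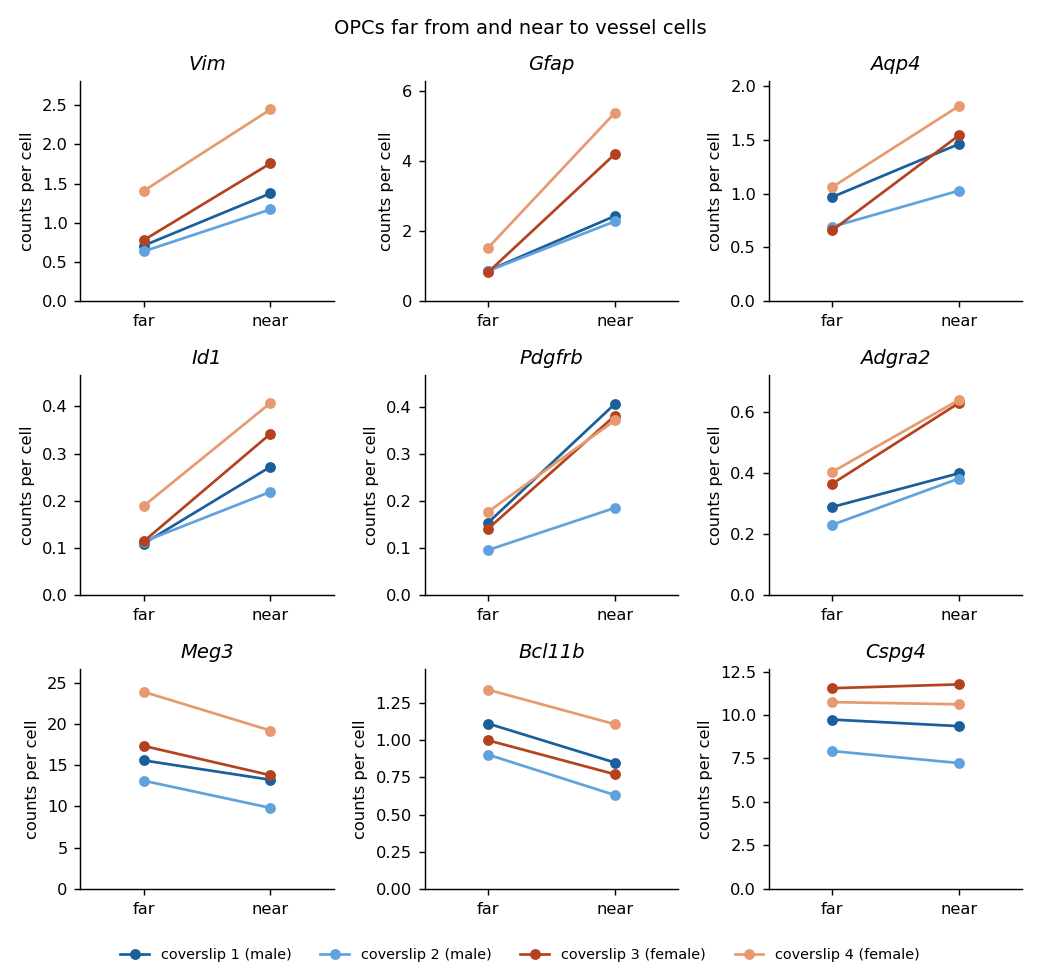
Counts per OPC (vertical axes, linear, from 0) far from and near to vessel cells, with a line for each of the 4 coverslips. Vim, Gfap, Aqp4, Id1, Pdgfrb and Adgra2 rise from far to near on every coverslip, Meg3 and Bcl11b fall, and Cspg4 shows no call.

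Id1, Pdgfrb and Adgra2, all abundant in vessel cells, were also higher in near OPCs. Id1, an inhibitor of basic helix-loop-helix factors and a target of BMP signalling, stood at 0.272, 0.219, 0.342 and 0.407 counts per near OPC and at 0.109, 0.113, 0.114 and 0.189 per far OPC. The ranges did not overlap (2.33-fold, log2 1.22 ± 0.11 SE, adjusted p = 0.00055). Pdgfrb stood at 0.407, 0.186, 0.382 and 0.372 near and at 0.154, 0.0960, 0.141 and 0.177 far, again without overlap (2.30-fold, log2 1.20 ± 0.10 SE, adjusted p = 0.00055). The far levels of Id1 and Pdgfrb did not exceed every blank on every coverslip; the highest blank averaged 0.155 ± 0.0169 counts per far OPC, so their folds rest on far levels close to that of false decoding. Adgra2 stood at 0.400, 0.383, 0.631 and 0.641 near and at 0.289, 0.231, 0.366 and 0.404 far. It was higher near on each coverslip, with overlapping ranges (1.57-fold, log2 0.65 ± 0.06 SE, adjusted p = 0.00055).

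The gains were also set against the level in vessel cells. Cldn5 and Pecam1 are no neutral yardstick here, since the rule raised their level in vessel cells and capped Cldn5 in OPCs, and so lowered their fractions. Among 11 genes at least 10 times higher in vessel cells than in far OPCs, the gain from far to near was 6.21% ± 1.49 of the vessel level for Vim, 4.56% ± 1.02 for Pdgfrb, 3.89% ± 1.18 for Id1 and 3.45% ± 1.08 for Adgra2 (SD, n = 4). Lef1 and Tcf7, Wnt-effector genes also expressed in endothelium, gained 3.19% ± 0.749 and 3.04% ± 0.959. Pecam1 gained 2.21% ± 0.331, the Frizzled receptor gene Fzd6 gained 2.06% ± 0.194 and its relative Fzd4 gained 0.741% ± 0.524. The differences between genes were not tested, and no amount of spill-over is read from them.

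**Figure D3:**
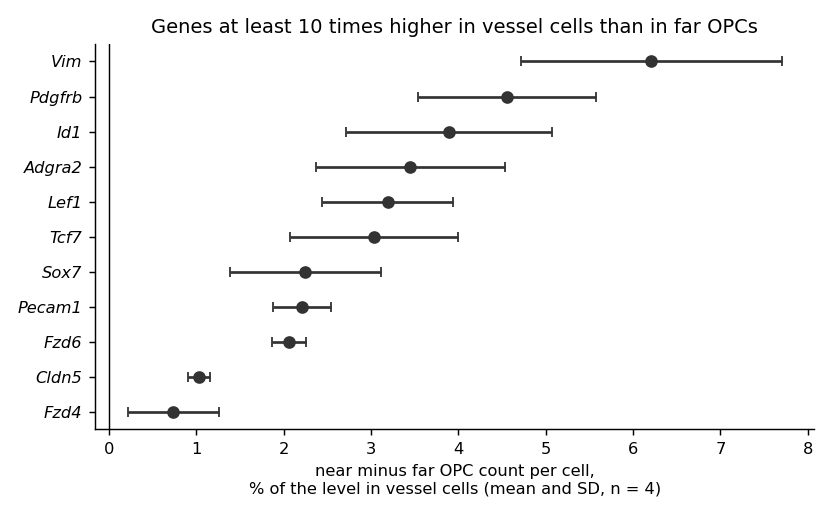
Gain in count per OPC from far to near, as a percent of the count per vessel cell (horizontal axis, mean and SD over 4 coverslips), for the 11 genes at least 10 times higher in vessel cells than in far OPCs. The gains run from 0.741% for Fzd4 to 6.21% for Vim, with Cldn5 at 1.03% and Pecam1 at 2.21%.

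In OPCs without a single count of Cldn5 or Pecam1, 6 genes were called higher, and all 6 were among the 20: Vim, Pdgfrb, Gfap, Id1, Adgra2 and Aqp4. Their log2 differences there were 0.58 for Vim, 0.83 for Pdgfrb, 1.48 for Gfap, 0.92 for Id1, 0.34 for Adgra2 and 0.54 for Aqp4, all smaller than among all OPCs. Lef1, at 0.28, and Tcf7, at 0.21, were not called (adjusted p = 0.088 and 0.33). Near OPCs averaged only 0.433 counts of Cldn5 and 0.333 of Pecam1, so a cell with neither can still hold other vessel transcripts. The filter also does not select on transcripts of pericytes or astrocytes. What part transcripts of neighbouring cells have in these differences was not tested. The other 12 of the 20 were not called there either, although each kept its sign. Of the 16 lower genes 8 were called in these cells, which numbered 344 to 728 near OPCs per coverslip. The same 6 higher genes were the ones called when far OPCs came from the same squares of 200 units as the near ones, a comparison chosen after the first fit was seen. There Gfap differed by 1.27 and Aqp4 by 0.49, against 1.75 and 0.78 over whole sections.

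The levels changed over distance in different ways. Vim fell with distance, from 1.90 ± 0.681 counts per OPC within 10 units to 1.30 ± 0.527 at 15 to 20, 0.992 ± 0.395 at 30 to 40 and 0.871 ± 0.407 at 60 to 100 units. Gfap was about level across the innermost bins, at 3.42 ± 1.30 within 10 units and 3.63 ± 1.63 at 10 to 15, and was still 2.18 ± 0.587 at 20 to 30 and 1.61 ± 0.484 at 30 to 40 units, against 1.05 ± 0.319 at 40 to 60. Cldn5 at 20 to 30 units had fallen to 0.131 ± 0.0132. Id1 stood at 0.329 ± 0.0540 within 10 units, 0.205 ± 0.0483 at 15 to 20 and 0.136 ± 0.0340 at 40 to 60 units. Aqp4 was highest at 10 to 15 units, at 1.55 ± 0.335, and stood at 1.28 ± 0.311 within 10 units. These counts per OPC are not scaled, and genes that were not called were also lower in the innermost bin than at 10 to 15 units. Cspg4 stood at 9.09 ± 1.89 against 10.1 ± 1.96, and Gpc1 at 3.07 ± 0.500 against 3.91 ± 0.751. A lower innermost level is thus not particular to Aqp4. The innermost bin held 988 OPCs in all, and neighbouring bins were not tested against each other.

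**Figure D4:**
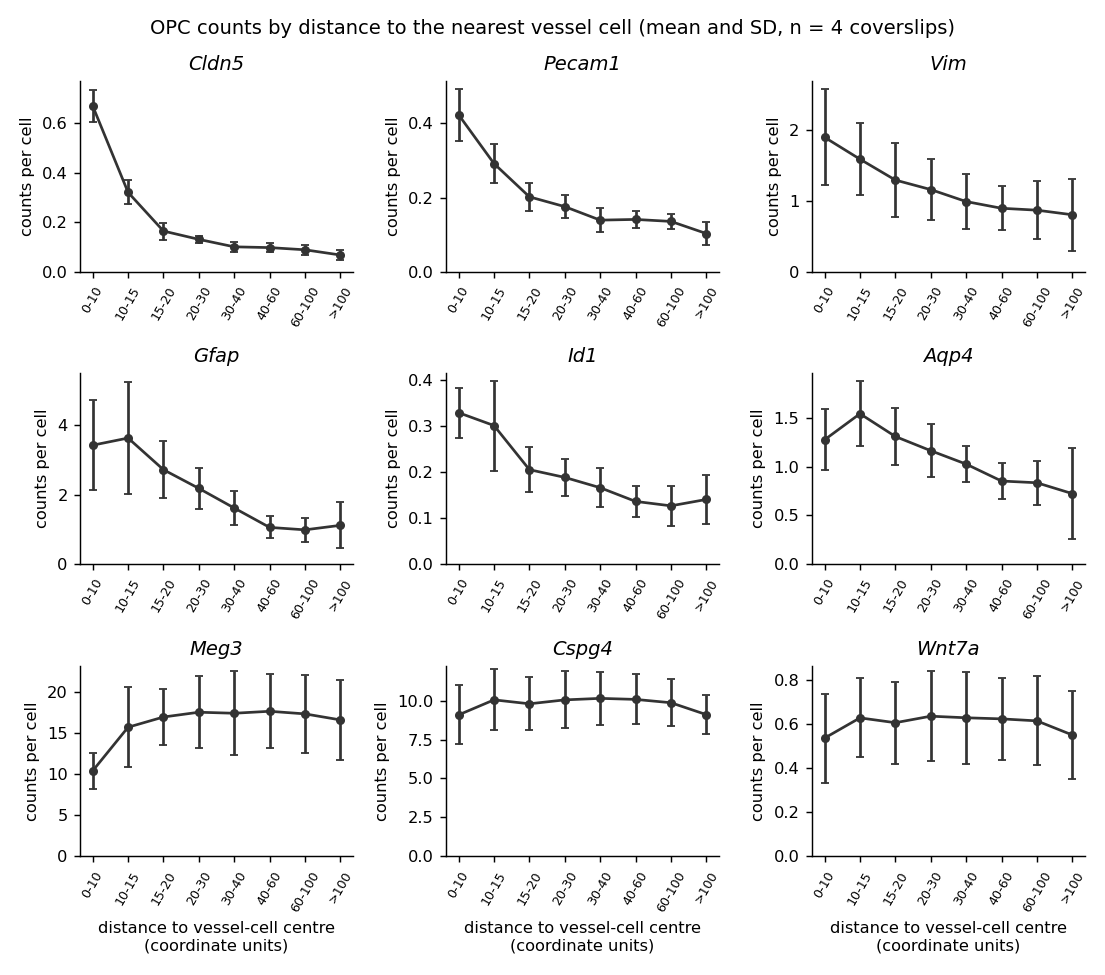
Mean count per OPC with SD over 4 coverslips (vertical axes, linear, from 0) in bins of distance to the nearest vessel-cell centre, in coordinate units. Cldn5 is at 0.670 in the innermost bin and 0.165 at 15 to 20 units, Gfap is still 2.18 at 20 to 30 units, and Meg3 is at 10.4 in the innermost bin and at 17.5 at 20 to 30 units. Counts are not scaled, and Cspg4 is at 9.09 in the innermost bin and at 10.1 at 10 to 15 units.

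The 16 lower genes included transcripts that are abundant in neurons. Meg3, a noncoding RNA abundant in neurons, stood at 13.2, 9.83, 13.8 and 19.2 counts per near OPC and at 15.6, 13.1, 17.3 and 23.9 per far OPC. It was lower near on 4 of 4 coverslips with overlapping ranges (1.27-fold lower, log2 -0.34 ± 0.04 SE, adjusted p = 0.0012). By distance, Meg3 was at 10.4 ± 2.15 within 10 units, 15.7 ± 4.83 at 10 to 15 and 17.5 ± 4.38 at 20 to 30 units. These counts are not scaled, and genes not called, such as Cspg4, were also lower within 10 units. Bcl11b, a transcription factor gene of deep-layer and striatal neurons, stood at 0.850, 0.631, 0.772 and 1.11 near and at 1.11, 0.904, 1.00 and 1.34 far (1.32-fold lower, log2 -0.40 ± 0.04 SE, adjusted p = 0.0012). Bcl11b, too, was lower near on each coverslip, with overlapping ranges.

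Prkce, which encodes protein kinase C epsilon, fell 1.29-fold (log2 -0.37 ± 0.04 SE, adjusted p = 0.00092), from 1.40 ± 0.332 counts per far OPC to 1.10 ± 0.273 per near OPC. The GABA-synthesis genes Gad1 and Gad2 fell by 0.34 and 0.39 on the log2 scale (adjusted p = 0.011 and 0.010). Against far OPCs of the same squares of 400 units they differed by -0.15 each and were not called (adjusted p = 0.19 and 0.24). Peg3, an imprinted zinc-finger gene, fell by 0.23 (adjusted p = 0.0017). Cx3cl1, the chemokine gene deleted in the animals of 1 section per coverslip, fell by 0.25 (adjusted p = 0.015; not called without coverslip 3), and its level of 1.37 ± 0.368 near and 1.59 ± 0.268 far is an average over both genotypes. Of the 5 inhibitory-neuron markers tested, 2 were called lower and none higher (median log2 -0.34, with 11.8% of all genes called lower), and both lost the call within those squares. Summed, these markers amounted to 1.73 to 4.26 counts per near OPC and 2.60 to 5.05 per far OPC, lower near on 4 of 4 coverslips. Of the 5 projection-neuron markers, Bcl11b alone was called (median -0.08). Neuronal transcripts counted in neighbouring OPCs would enter these levels, and their part was not tested. Per cell volume, which was smaller near, Prkce, Meg3 and Bcl11b remained called lower, at -0.20, -0.17 and -0.23, and the other 13 did not.

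The Wnt genes are described by list, beside 14.7% of all genes called higher and 11.8% called lower. The shares of ligands and of receptors called were near or below these. Of 19 ligand and secretion genes, 2 were called higher, Wnt5a and Wls, and 1 lower, Wnt7b (median log2 -0.02), and 6 of the 19 lay above the blanks in near OPCs. Wnt7b fell by 0.13 on the log2 scale (adjusted p = 0.023), from 1.14 ± 0.238 counts per far OPC to 1.06 ± 0.246 per near OPC, but per cell volume its difference was 0.04 and was not called. The call was also lost with library totals (-0.09, adjusted p = 0.052) and on leaving out any 1 of the 4 coverslips (-0.17 to -0.11). Its close relative Wnt7a was not called, at 0.580, 0.367, 0.628 and 0.821 near and 0.578, 0.395, 0.641 and 0.865 far (log2 -0.07, 95% confidence interval -0.17 to 0.03, adjusted p = 0.25). Wnt5a, a ligand of beta-catenin-independent signalling, stood at 0.201 ± 0.0422 near and 0.149 ± 0.0221 far, the latter not above every blank (log2 0.41 ± 0.08 SE, adjusted p = 0.011). Wnt5a was not called with a stricter OPC threshold (0.28, adjusted p = 0.089). With sections as units Wnt5a (0.38) passed by adjusted p (0.00099) but missed the sign or blank condition of a call. Wls, the carrier that brings Wnt ligands to the cell surface, was 1.22-fold higher near (log2 0.28 ± 0.06 SE, adjusted p = 0.013) and was not called without coverslip 4 (0.25). The call of Wls was also lost with a stricter OPC threshold (0.135, adjusted p = 0.28) and for near OPCs at 10 to 20 units (0.094, adjusted p = 0.35). Against far OPCs of the same squares of 400 units Wls differed by 0.20 and was not called (adjusted p = 0.059).

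Of 18 receptor and co-receptor genes, 3 were called higher and none lower (median log2 0.07): Adgra2, the co-receptor gene Lrp5 and the Frizzled gene Fzd10. Fzd10 stood at 0.292 counts per near OPC and 0.242 per far OPC. Its call was lost without coverslip 1, 3 or 4, under DESeq2 and with a stricter OPC threshold. Fzd10 was also not called against far OPCs of the same squares of 400 units or with sections as units. Lrp5 was 1.10-fold higher near (log2 0.14 ± 0.03 SE, adjusted p = 0.022), but the call was lost without coverslip 1 (0.13), 3 (0.14) or 4 (0.08), under DESeq2 (0.10), against far OPCs at 60 to 100 units (0.09) and for near OPCs at 10 to 20 units (0.01). Reck, the partner of Adgra2 at the receptor for Wnt7a and Wnt7b, was not called, at 0.327 ± 0.0591 near and 0.298 ± 0.0576 far (log2 0.11, 95% confidence interval -0.03 to 0.26, adjusted p = 0.20). Fzd4 was not called either (log2 0.09, 95% confidence interval -0.08 to 0.26, adjusted p = 0.43). Fzd6 passed the p threshold (log2 0.78 ± 0.13 SE, adjusted p = 0.0059), but at 0.128 ± 0.0198 counts per near OPC it did not lie above the blanks.

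Inside the cell, 4 of 13 pathway genes were called higher and 4 lower (median log2 -0.10), above the shares over all genes of 14.7% and 11.8%, though no test bears on that. The higher ones were the transcription factor genes Lef1, Tcf7 and Tcf7l1 and the formin gene Daam2, which binds Dishevelled. Lef1 stood at 0.314 ± 0.0501 near and 0.212 ± 0.0469 far (log2 0.55 ± 0.07 SE, adjusted p = 0.0018). Tcf7 differed by 0.59 (adjusted p = 0.0029), at 0.167 counts per near OPC and 0.109 per far OPC, the latter not above every blank. Daam2 differed by 0.39 (adjusted p = 0.0070). Within squares of 400 units all 3 stayed called, Lef1 at 0.27, Tcf7 at 0.53 and Daam2 at 0.38. Within squares of 200 units none was called, at 0.27, 0.50 and 0.27, although Tcf7 passed there by adjusted p (0.022). With sections as units Tcf7 (0.58) and Daam2 (0.35) passed by adjusted p (0.00011 and 0.00044) but missed the sign or blank condition of a call. Unscaled, Lef1 also fell among far OPCs, from 0.236 ± 0.0518 at 40 to 60 units to 0.183 ± 0.0399 at 60 to 100. Tcf7l2, the Tcf factor associated with the oligodendrocyte lineage, was not called, at 2.07 ± 0.694 near and 2.21 ± 0.809 far (log2 -0.10, 95% confidence interval -0.20 to 0.0032, adjusted p = 0.13). The lower genes were Apc, Apc2 and Gsk3b, of the complex that degrades beta-catenin, and the Dishevelled gene Dvl1. Apc fell by 0.23 (adjusted p = 0.0029), Apc2 by 0.20 (adjusted p = 0.0029), Gsk3b by 0.14 (adjusted p = 0.013) and Dvl1 by 0.11 (adjusted p = 0.017), but per cell volume Gsk3b and Dvl1 turned positive, at 0.03 and 0.06, and none of the 4 was called. Dvl1 was also not called without coverslip 1, 2 or 4, nor Gsk3b without coverslip 4, at differences of -0.17 to -0.11.

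Of the secreted antagonists, 1 of 6 was called, Sfrp1, which was lower (median log2 -0.08), a share near the 11.8% of all genes. Of 10 glypicans and syndecans, which hold Wnt ligands at the cell surface, Sdc4 was called higher and Sdc3 lower (median -0.06). Sdc3, at 8.82 ± 2.29 counts per far OPC, fell by 0.17 on the log2 scale (adjusted p = 0.011). Slc9a3r1, the scaffold that binds ezrin, differed by 0.32 ± 0.05 (SE) on the log2 scale (higher near, adjusted p = 0.0062).

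None of the 4 oligodendrocyte-lineage genes tested was called (median log2 -0.05, range -0.06 to 0.02). They were Cspg4, Enpp6, Sox9 and Sox2. Over all genes 14.7% were called higher and 11.8% lower, so none of 4 is near those shares. Sox9 and Sox2 are not particular to the lineage, at 6.90 and 7.08 counts per far astrocyte and 3.67 and 4.38 per far OPC. Cspg4 stood at 9.36, 7.23, 11.8 and 10.6 counts per near OPC and at 9.74, 7.93, 11.5 and 10.7 per far OPC (log2 -0.06, 95% confidence interval -0.12 to 0.0048, adjusted p = 0.14). Enpp6, an early marker of differentiating oligodendrocytes, stood at 0.162 ± 0.0171 near and 0.164 ± 0.0447 far and did not lie above the blanks, so its difference (log2 -0.04, 95% confidence interval -0.32 to 0.24) was not resolved at this depth. Of 6 microglia and 2 border-macrophage markers none was called, but only 1 and 0 of them lay above the blanks in near OPCs, so a call was hardly possible. The log2 differences of the microglia markers ran from 0.14 to 0.54, and Tmem119 passed the p threshold (log2 0.54, adjusted p = 0.011). Mrc1, a border-macrophage marker, passed the p threshold (log2 1.22 ± 0.14 SE, adjusted p = 0.0014) at 0.0964 ± 0.0267 counts per near OPC, which was not above the blanks. Summed border-macrophage markers were 0.143 to 0.241 counts per near OPC and 0.105 to 0.130 per far OPC, and microglia markers 0.526 to 1.60 and 0.586 to 1.00.

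The near-far differences of OPCs were next tested against those of all other non-vessel cells at the same distances, to show where OPCs differed from them. Passing needed only an adjusted p below 0.05 here, without the sign and blank conditions of a call. In edgeR's interaction test over 136 genes, the log2 difference was larger (more positive) in OPCs for 18 genes (13.2%) and smaller for 30 (22.1%). Scaled by library totals the numbers were 12 and 37, and per cell volume 44 and 21. Without coverslip 2, 10 differences were larger and 28 smaller. Some genes that passed lay below the highest blank in OPCs, which averaged 0.148 counts per near OPC. Among them were Trabd2b and Ror1, at 0.112 and 0.103 per near OPC. Fosl2, Itgam and Vip passed with the same sign on only 3 of 4 coverslips. Gfap, Id1 and Aqp4 did not pass, with differences of 1.74, 1.22 and 0.77 in OPCs and 1.95, 0.94 and 0.95 in the other cells (adjusted p of the interaction 0.28, 0.065 and 0.22). Vim was higher near in OPCs by 0.93 and in other cells by 1.45 (interaction -0.53, adjusted p = 0.0012). Near-vessel gains of these genes were therefore also seen in cells that are not OPCs.

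The smaller differences were led by Cspg4, Lrp5, Mrc1, Ror2, Pdgfrb and Apoe. Cspg4 was 9.74 counts per near OPC and 9.99 per far OPC, whereas in other cells it was 0.573 near and 0.232 far (interaction -1.46 ± 0.04 SE, adjusted p = 3.3e-10). Lrp5 followed, with an interaction of -0.67 (adjusted p = 7.7e-06), and Mrc1 with -1.30 (adjusted p = 2.5e-05). Mrc1 did not lie above the blanks in OPCs of either class and entered through the other cells, so its interaction says nothing of its level in OPCs. The non-canonical Wnt receptor gene Ror2 differed by 0.04 in OPCs and 0.63 in other cells (interaction -0.59, adjusted p = 9.5e-05). Pdgfrb rose by 1.19 in OPCs and 2.07 in other cells (interaction -0.88, adjusted p = 0.00014), and the lipoprotein gene Apoe by 0.22 and 0.69 (interaction -0.47, adjusted p = 0.00014). Near vessels the other cells held 1.17 counts of Pdgfrb and 0.424 of Mrc1 per cell, against 0.299 and 0.0788 far from them. The makeup of the other cells near and far was not measured, and its part was not tested.

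The larger differences were all negative in OPCs for the 6 genes with the smallest p, and more so in the other cells. Bcl11b differed by -0.41 in OPCs and -0.71 in other cells (interaction 0.31, adjusted p = 0.0056), Wnt7b by -0.13 and -0.33 (interaction 0.20, adjusted p = 0.0056), and the glypican gene Gpc1 by -0.10 and -0.29 (interaction 0.19, adjusted p = 0.0066). For Sdc3 the interaction was 0.20 (adjusted p = 0.0066), and for the casein kinase genes Csnk1a1 and Csnk2a1 it was 0.15 and 0.16 (adjusted p = 0.0072 and 0.0080). Meg3 differed by -0.35 in OPCs and -0.38 in other cells, and the interaction did not pass (0.03, adjusted p = 0.67).

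Against astrocytes alone, 49 of 134 genes differed in their near-far contrast (36.6%), 28 with the larger log2 difference in OPCs and 21 with the smaller. Here too the adjusted p alone decided, and the genes include some below the blanks in OPCs. Astrocytes were chosen by at least 3 counts of Aqp4 and at least 5 of Slc1a3, so these 2 genes were left out. Library totals gave 76 genes. On the log2 scale Pdgfrb rose more in OPCs, by 1.24 against 0.45 (interaction 0.80, adjusted p = 5.1e-05). In counts per cell Pdgfrb stood at 0.142 far and 0.337 near in OPCs, and at 1.02 far and 1.29 near in astrocytes. The rise in counts was thus not larger in OPCs, and their far level did not exceed every blank. Adgra2 rose less in OPCs, by 0.69 against 2.01 (interaction -1.31, adjusted p = 4.2e-07).

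**Figure D5:**
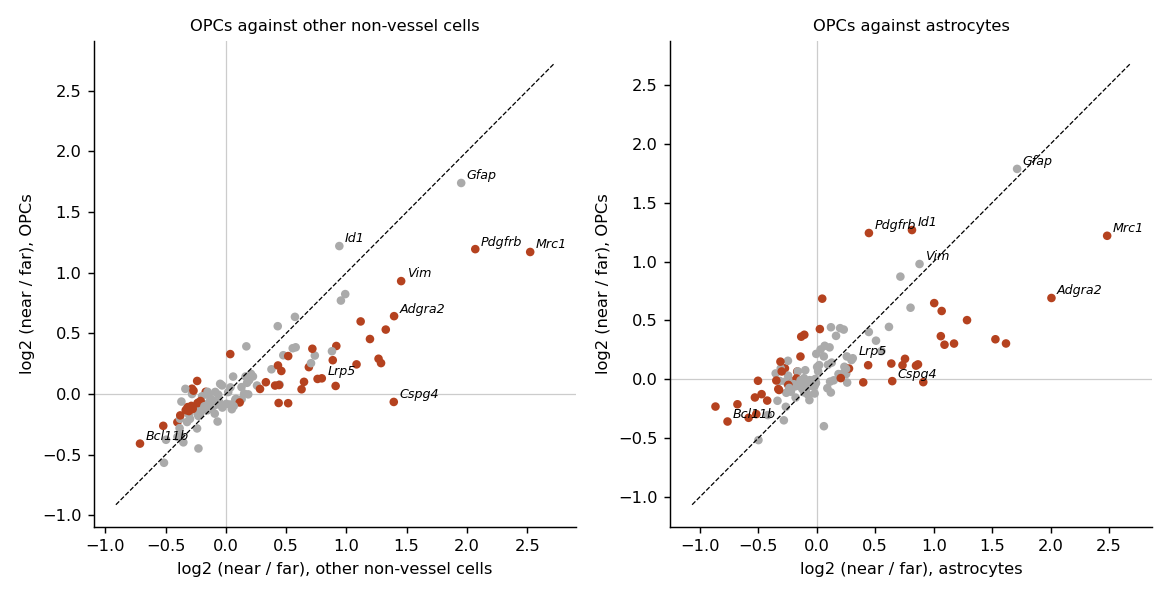
Log2 ratio of near to far in OPCs (vertical axes) against that in other non-vessel cells (left, 136 genes) and in astrocytes (right, 134 genes), with the dashed line of equality. Red points are the 48 and 49 genes whose difference passed the interaction test, and Cspg4, Mrc1 and Pdgfrb lie far below the line in the left panel.

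The share of OPCs beside vessels was set against that of other cells. Within 15 units of a vessel-cell centre lay 7.16%, 6.52%, 7.70% and 7.90% of OPCs and 7.35%, 7.60%, 7.89% and 9.16% of other non-vessel cells on coverslips 1 to 4. The share of OPCs was lower by 0.68 ± 0.57 percentage points (SD, n = 4) and was lower on 4 of 4 coverslips. The exact sign-flip test gave p = 0.13 (two-sided), the smallest that 4 coverslips can give. The difference was -0.36 percentage points within 20 units and -0.36 with a stricter vessel threshold, lower on 3 of 4 coverslips in both, and -0.88 with no limit on Cldn5 in either set.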

How the data were processed

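The deposited tables of the authors give transcript counts per segmented cell for 140 genes and 40 blanks, with no normalization, and the cell's volume and centre as other measures in units not named per the file headers. The decoding and segmentation software is not given in the sources used here. The members and gene lists were chosen with earlier results of these data known.

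Counts of kept cells were summed per coverslip and distance class (8 sums) and tested with edgeR 4.0.16 in R 4.3.3 (quasi-likelihood test, TMM factors, coverslip as a block, Benjamini-Hochberg adjustment at 0.05 over 136 genes). Pdgfra, Sox10, Cldn5 and Pecam1, used to choose cells, were described only. Interaction fits used 16 sums with coverslip by cell set as the block, and a gene passed by its adjusted p alone. Shares were compared by exact sign flips (scipy 1.17.1). Counts per cell are means over all cells of a class, so a higher mean does not tell more cells with counts from more counts per cell. On simulated data for the OPC comparison over 136 genes, 76.7% of 1.25-fold and 97.5% of 1.5-fold changes passed by adjusted p, as did 1.19% of unchanged genes. The sign and blank conditions of a call were not applied there. Changes were placed only in genes with larger sums, under a common dispersion, so these rates do not describe genes near the blanks.

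Named with values were the 12 genes of smallest p called in each direction, 6 per direction of the interaction with other cells, and a fixed list that includes Wnt7a, Reck, Fzd4, Fzd6, Tcf7l2, Cspg4 and Enpp6. Other names were added for list members and beside counts. Alternatives changed the scaling (library totals, cell volume, DESeq2 1.42.0), blank filter, count minimum, marker and distance limits, and the coverslips used. Sections as units, squares of 200 units, OPCs without a nearby astrocyte and shares with no Cldn5 limit were added after the data were seen. Cell coordinates do not separate OPCs from cells stacked within the section thickness.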

Additional observations from a re-analysis of the deposited data

Results flagged for a closer look

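The near-far difference of Wnt7a was 0.0228 on coverslip 1, apart from the other coverslips, which lay between -0.103 and -0.0843. It was the only outlier among 39 genes examined, and chance alone marks about 1 group in 20.

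The near-far difference of OPCs differed from that of other non-vessel cells for 48 genes in edgeR's interaction test, by adjusted p alone, of which 12 were named. The difference was larger (more positive) in OPCs, on the log2 scale, by 0.309 for Bcl11b, 0.1995 for Wnt7b, 0.1865 for Gpc1, 0.2023 for Sdc3, 0.1508 for Csnk1a1 and 0.1594 for Csnk2a1. Each of these genes was lower near vessels in both cell sets, and less so in OPCs. The difference was smaller (less positive) in OPCs for Cspg4 (-1.4586), Lrp5 (-0.6652), Mrc1 (-1.2974), Ror2 (-0.5925), Pdgfrb (-0.8751) and Apoe (-0.4657). Mrc1 did not lie above the blanks in OPCs of either class, so its value rests on the other cells. All 12 had the same sign on 4 of 4 coverslips.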

How the results depend on the processing

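Against 20 genes higher and 16 lower, the cell-volume scaling called 37 and 3, and OPCs without Cldn5 or Pecam1 counts 6 and 10. A stricter OPC threshold called 8 lower, and near OPCs at 10 to 20 units 13 higher. The alternatives added after seeing the data called 11 higher with sections as units, 6 higher and 5 lower within squares of 200 units, and 11 higher without a nearby astrocyte. Leaving out 1 coverslip gave 13 to 20 higher and 12 to 15 lower. Per cell volume 3 named genes turned from lower to higher without being called, Gsk3b (0.031), Dvl1 (0.0578) and Wnt7b (0.0403). Of 655 comparisons of 39 named genes with an alternative, 534 kept direction and call, 88 lost the call, 8 gained one, 22 uncalled values moved, and these 3 reversed.

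Against other cells, the larger differences in OPCs numbered 18, and 44 per cell volume, 31 without Cldn5 or Pecam1 counts and 10 to 18 with 1 coverslip left out; the smaller ones numbered 22 to 30 with 1 left out. Against astrocytes, 49 genes became 76 with library totals and 42 to 66 with 1 coverslip left out. The difference in shares, -0.68 percentage points, was -0.84 to -0.49 with 1 coverslip left out, and -0.36 within 20 units and with a stricter vessel threshold, where coverslip 1 turned positive (0.32 and 0.11). The causes were not tested. Genes near the blanks, such as Fzd6 and Mrc1, are limited by depth. No paired analysis by replicate number was possible because there is 1 group; the coverslip block pairs the classes.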
